A study of Bos taurus with 20 samples.

Results

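The genes described here were 41 genes of the interferon response and of antigen presentation by class I molecules, taken by name and grouped by role. The count table held a row for 39 of them among 33063 named genes. IFIT1 and BST2 had no row under these names and were not analysed here. A filter on low counts left 27 of the 39 for testing, and the other 12 are described by their counts.

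RNA sequencing was performed on 20 clones of bovine mesenchymal stem cells (MSCs), each grown from a single cell sorted from a passaged MSC culture of adipose origin. There were 10 adipogenic (A) clones, with strong lipid staining after standard adipogenic differentiation, and 10 non-adipogenic (N) clones, with none. Animals 17 and 20 are represented by 1 A and 1 N clone each, animals 22 and 23 by 4 of either kind. All clones were expanded in medium with serum and bFGF, no interferon treatment is given in the labels, and RNA came from cells that had not been put through differentiation. Clones are written as animal and clone number. Clones of 1 animal share a donor, so the tests across clones describe the spread between clones of these 4 animals.

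Interferons are secreted antiviral cytokines. Type I interferons bind IFNAR1 and IFNAR2, the type II interferon binds IFNGR1 and IFNGR2, and JAK kinases at these receptors activate transcription factors, STAT2 and IRF9 among them, that switch on interferon-stimulated genes. IRF3 and IRF7 drive the production of type I interferons once RNA sensors such as RIG-I (DDX58) and MDA5 (IFIH1) have bound viral RNA. Interferon also raises the class I pathway, in which the immunoproteasome cuts proteins, TAP1 and TAP2 carry the peptides into the endoplasmic reticulum, and class I molecules with B2M show them to T cells.

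Levels are given as CPM, the counts of a gene relative to the library size scaled by TMM factors, and differences as log2 fold changes of A over N clones with their standard errors (SE). A gene was called where its adjusted p was under 0.05 in the quasi-likelihood test of edgeR, adjusted by Benjamini-Hochberg over all genes tested. Total counts per clone ran from 14615493 to 29185355 in A clones and from 14908802 to 43111345 in N clones. The 12 mesenchymal markers summed to between 24204 and 55713.5 CPM in every clone, but single markers differed more. N clone 22-5 was the lowest N clone in THY1 (0.393 CPM), ENG (19.0 CPM) and PDGFRB (59.3 CPM). The lowest A clones in these genes had 17.9, 242 and 244 CPM. PDGFRA was lowest in A clone 17-57 (36.1 CPM), and its lowest N clone was 22-17 (84.4 CPM). Among the leukocyte markers, PTPRC reached at most 7 counts in a clone, and LYZ and MS4A1 were at 0 counts in all 20. The 14 leukocyte markers other than NCAM1 nonetheless moved with condition, at 3.73 to 13.3 CPM in sum in A clones (median 9.78) and 1.35 to 12.8 CPM in N clones (median 3.46). CD68 was called higher in A clones (log2 fold change 1.06, SE 0.281, adjusted p = 0.0157), and CSF1R, under the filter with 7 to 35 counts in A and 0 to 10 counts in N clones, was above every N clone in all 10 A clones. The part of these markers in the results was not tested. N clones 22-5 and 22-9 stood apart by the summed mesothelial markers, with 9159.6 and 6484 CPM, where the remaining N clones had 11.4 to 276 CPM. A clones 22-11 and 22-16 were highest among A clones, with 1097 and 939.6 CPM, against 8.50 to 391 CPM in the others.

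Of the 27 genes tested between A and N clones, HERC6, IRF2 and IRF7 were lower in A clones, none was higher, and 24 did not pass. Across all 12900 genes tested, 10.3% were called higher in A clones and 10.3% lower. The median log2 fold change was 0.0086 over the 27 genes and -0.0101 over all genes tested, and 13 of the 27 had a negative estimate. Without an adjustment, 6 of the 27 had a p under 0.05 in edgeR's test, against 4663 of all 12900 genes tested. DESeq2's Wald test called B2M, higher in A clones, besides HERC6, IRF2 and IRF7. Differences of a bulk library cannot tell fewer expressing cells from less RNA per cell.

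**Figure D1:**
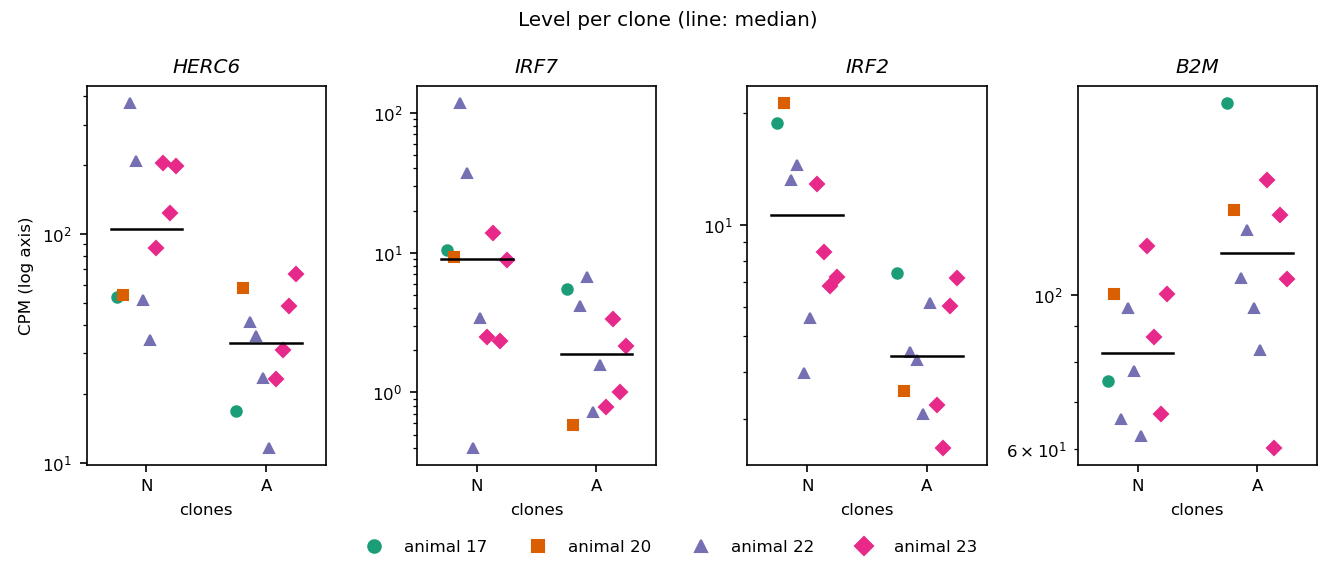
Level per clone in CPM on a log axis for HERC6, IRF7, IRF2 and B2M, with N clones at the left and A clones at the right of each panel. Each point is 1 clone, its shape and colour give the animal, and the line is the median. In HERC6, IRF7 and IRF2, 6 N clones lay above every A clone, and in B2M, which did not pass the test, 5 A clones lay above every N clone.

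HERC6, a HECT-domain E3 ligase that attaches ISG15 to proteins in mouse cells, ran from 11.6 to 66.8 CPM in A clones (median 33.4) and from 34.2 to 372 CPM in N clones (median 105). The groups overlapped: 5 A clones lay below every N clone, and 6 N clones lay above every A clone. The highest were N clones 22-5 (372 CPM), 22-9 (208 CPM), 23-22 (205 CPM) and 23-74 (198 CPM). The means were 35.6 ± 18.0 CPM in A and 138 ± 107 CPM in N clones (SD, n = 10 each). The log2 fold change was -1.95 (SE 0.435, adjusted p = 0.00672). By animal, in the order 17, 20, 22 and 23, the difference of mean log2 CPM was -1.65, 0.10, -2.10 and -1.88. It was therefore not lower in the single A clone of animal 20.

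IRF2, a transcription factor that competes with IRF1 for the same promoter elements, ran from 2.51 to 7.41 CPM in A clones, with a median of 4.44. In N clones it ran from 3.98 to 21.2 CPM, with a median of 10.6. Below every N clone lay 4 A clones, and N clones 20-15 and 17-23 were the highest of all, at 21.2 and 18.7 CPM. The means were 4.81 ± 1.77 CPM in A and 11.3 ± 5.78 CPM in N clones (SD, n = 10 each), a log2 fold change of -1.15 (SE 0.278, adjusted p = 0.00985). It was lower in A clones in all 4 animals, by -1.33, -2.54, -0.87 and -0.96 in animals 17, 20, 22 and 23.

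IRF7, which drives the amplification of type I interferon genes, ran from 0.587 to 6.66 CPM in A clones, with a median of 1.87. In N clones it ran from 0.403 to 117 CPM, with a median of 9.07. The spread in N clones was wide: 22-5 had 117 CPM and 22-9 had 36.9 CPM, while the other N clones had 0.403 to 13.9 CPM and clone 22-17 was the lowest of all 20. The means were 2.65 ± 2.18 CPM in A and 20.5 ± 35.5 CPM in N clones (SD, n = 10 each), a log2 fold change of -2.69 (SE 0.783, adjusted p = 0.0242). The difference was -0.90, -3.77, -1.90 and -1.67 in animals 17, 20, 22 and 23. IRF7 was not called with limma-voom and animal as a random effect (-1.73, adjusted p = 0.220), or without animal 22 (-2.03, adjusted p = 0.0592).

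The N clones with the highest summed mesothelial markers were also the highest in HERC6 and IRF7. Without these 2 clones, a fit chosen after the data were seen, HERC6 kept a log2 fold change of -1.24 (SE 0.334, adjusted p = 0.0255). In that fit IRF2 was at -0.89 (SE 0.293, adjusted p = 0.0532) and IRF7 at -1.30 (SE 0.719, adjusted p = 0.233), so neither was called. The summed proliferation markers also moved with the groups, at 52.2 to 486 CPM in A and 163 to 792 CPM in N clones, with 8 of 13 lower in A clones and none higher. N clones 22-5, 23-74 and 22-9 were the highest in them. The part of the proliferation markers in the result was not tested.

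The 4 interferon receptor genes were measured in every clone, and none was called or had an unadjusted p under 0.05. IFNGR2, the receptor gene with the highest mean CPM, ran from 93.9 to 206 CPM in A clones (median 126) and from 33.3 to 177 CPM in N clones (median 129). Only N clones 22-5 and 22-9, at 33.3 and 66.1 CPM, fell below every A clone. Its log2 fold change was 0.17 (SE 0.214, adjusted p = 0.601, 95% interval -0.25 to 0.59). IFNAR1 was the steadiest, at 31.3 to 56.5 CPM over all clones, with a log2 fold change of 0.07 (SE 0.101, adjusted p = 0.634). IFNAR2 and IFNGR1 gave 0.20 (SE 0.238) and 0.10 (SE 0.152). All 4 intervals lay within 2-fold in either direction. In IFNAR2, IFNGR1 and IFNGR2 alike, clone 22-5 was the lowest of the N clones.

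Among the sensors and transcription factors, 7 of 8 were tested, and 5 of those 7 were not called. IRF3, the factor that starts the first wave of interferon transcription, had the highest mean CPM of the group. It ran from 43.3 to 69.7 CPM in A clones (median 59.1) and from 56.7 to 71.5 CPM in N clones (median 66.3). Below every N clone lay 4 A clones, and its log2 fold change of -0.22 (SE 0.0944, adjusted p = 0.0985) did not pass. DDX58, STAT2, IRF1 and IRF9 had log2 fold changes between -0.05 and 0.04, with adjusted p-values of 0.881 to 0.985. Their levels differed more between single clones. IRF1, which drives many interferon-gamma targets, was at 30.4 CPM in N clone 20-15, at 24.5 CPM in A clone 23-14 and at 23.9 CPM in A clone 20-106, against 2.47 to 14.1 CPM in the other 17 clones. DDX58 was highest in clones of animals 17 and 20, at 16.1 to 21.5 CPM, against 4.37 to 11.9 CPM in the clones of animals 22 and 23.

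**Figure D2:**
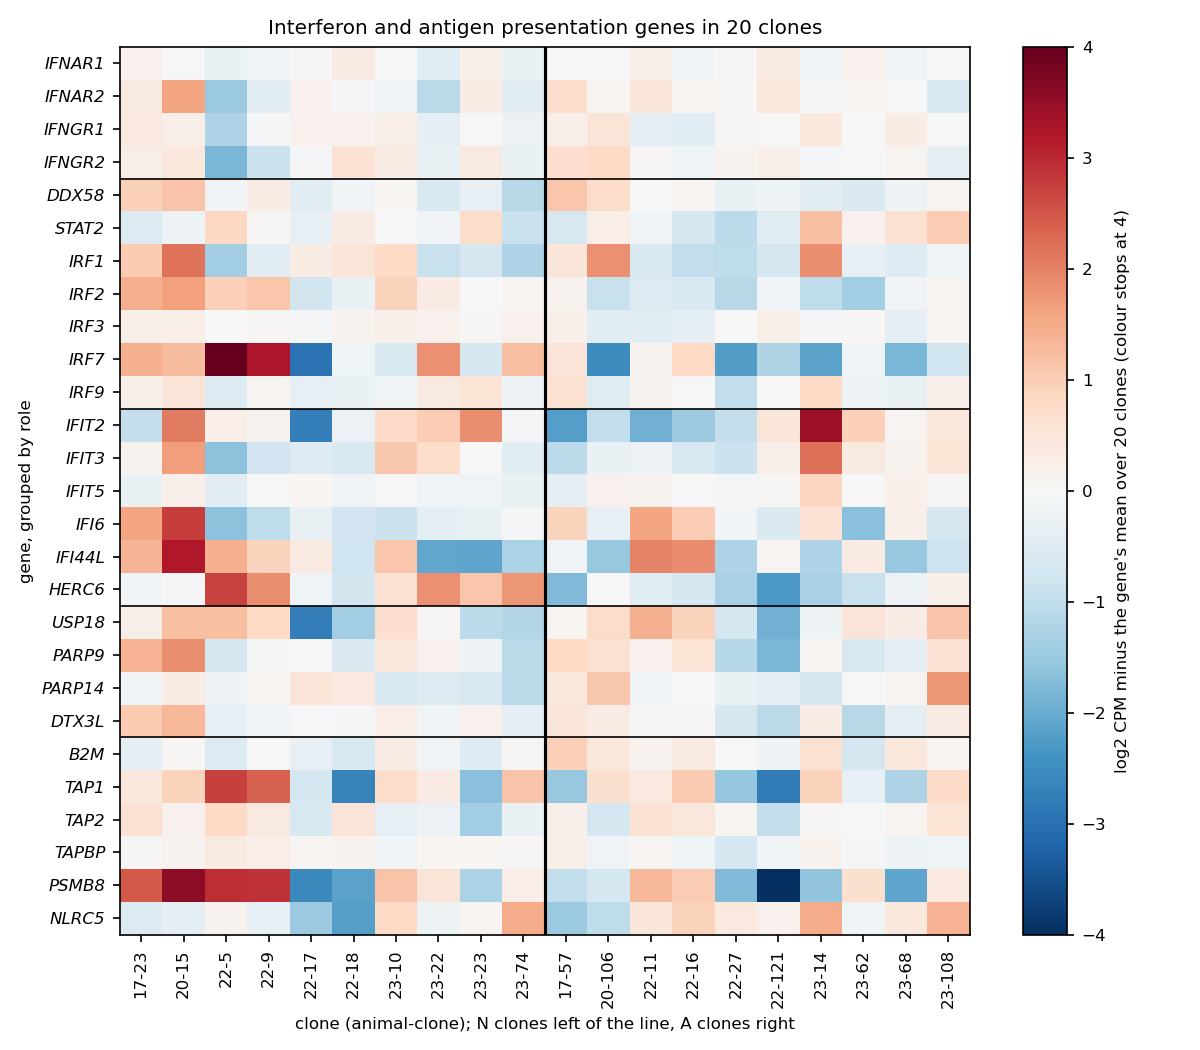
Log2 CPM of the 27 genes tested in each of the 20 clones, less the mean of the gene over all clones, with genes in rows grouped by role and N clones left of the vertical line. Red is above the mean and blue below. N clone 20-15 was red for most effector and regulator genes, and N clones 22-5 and 22-9 were red for IRF7, HERC6, TAP1 and PSMB8.

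Few of the interferon-stimulated effectors had enough counts to be tested. Of 18 listed, 16 had a row and 6 passed the filter, and HERC6 was the only one called. The 3 IFIT genes that were tested encode proteins that bind viral RNA. IFIT2 ran from 0.884 to 49.4 CPM in A clones (median 3.56) and from 0.582 to 19.5 CPM in N clones (median 5.18). IFIT3 ran from 4.15 to 40.1 CPM in A clones (median 8.51) and from 2.70 to 27.9 CPM in N clones (median 7.60). IFIT5 ran from 44.2 to 103.6 CPM in A clones (median 59.2) and from 42.9 to 65.9 CPM in N clones (median 52.6). In all 3 the highest A clone was 23-14 and the highest N clone was 20-15. The log2 fold changes were -0.18 (SE 0.582), 0.17 (SE 0.352) and 0.22 (SE 0.111), with adjusted p-values of 0.853, 0.759 and 0.161. IFI6 and IFI44L had log2 fold changes of 0.44 (SE 0.487) and -0.37 (SE 0.714). Both were highest in N clone 20-15, at 12.7 and 6.49 CPM, and among A clones both were highest in 22-11, at 5.55 and 2.74 CPM.

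The 10 effectors under the filter, among them well-known markers of an interferon response, had few counts in most clones. ISG15, a ubiquitin-like modifier, had 1 to 37 counts in A and 0 to 33 counts in N clones. RSAD2 (viperin) had 6 counts in all 20 clones together, MX2 had 4 and OAS2 had 1. MX1, an antiviral GTPase, had counts in 9 A and 2 N clones. Its highest counts were 49 in A clone 17-57, 25 in N clone 17-23, 24 in A clone 22-16, 16 in A clone 22-11 and 10 in N clone 20-15, and no other clone had more than 3. OAS1Y, an oligoadenylate synthetase that activates RNase L, reached 85 counts in A clone 22-11 and 84 in N clone 20-15, with 48 in A clone 22-16 and at most 22 in the others. In ISG15 the same 3 clones had the highest counts, 37, 33 and 32. CMPK2, a mitochondrial nucleotide kinase, had the most counts of the genes left out, 551 in all, of which 185 were in N clone 17-23 and 143 in A clone 20-106.

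IFI44, OAS1X and XAF1 had 49, 29 and 138 counts over all clones. IFIH1, the other gene of the sensors left out, had 0 to 30 counts in A and 0 to 43 counts in N clones, and its highest counts were 43 in N clone 22-9, 39 in N clone 22-5 and 34 in N clone 17-23. With the filter removed, none of the 12 genes left out was called, and 2 had an unadjusted p under 0.05. The closest was MX1, with a log2 fold change of 3.09 (SE 1.02, adjusted p = 0.0546), a fitted value that rests on the few counts given above. At this depth a count of 0 allows up to 3 counts, or 0.0763 to 0.216 CPM depending on the clone.

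**Figure D3:**
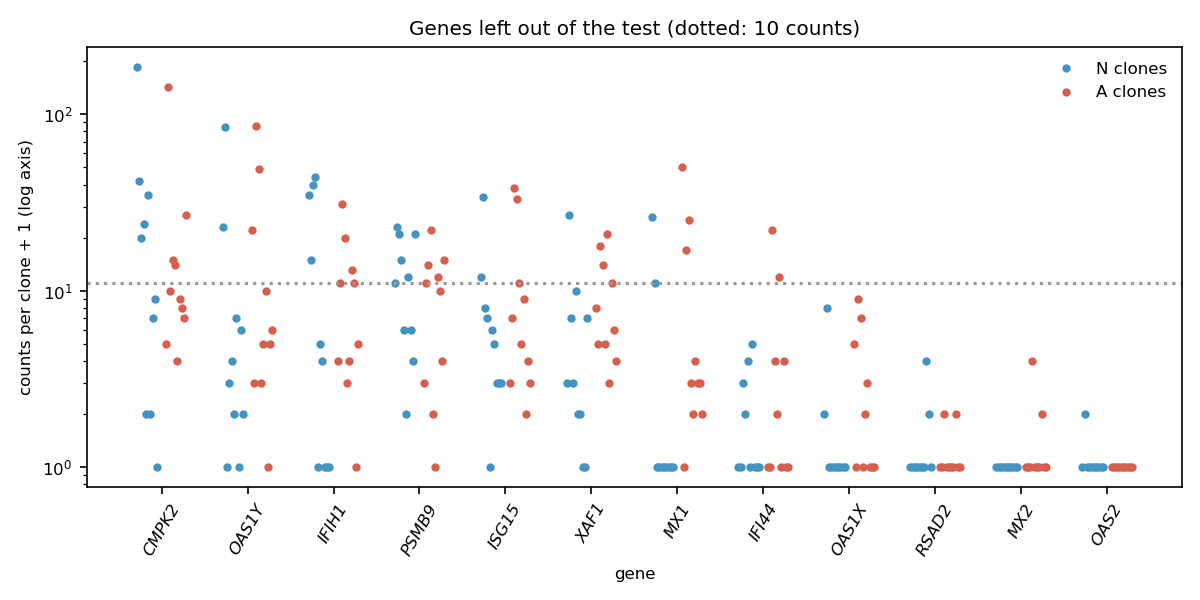
Counts per clone plus 1, on a log axis, for the 12 genes left out of the test, ordered by their summed counts, with N clones in blue and A clones in red. The dotted line marks 10 counts. Most points of IFI44, OAS1X, RSAD2, MX2 and OAS2 were at 0 counts, while CMPK2 and OAS1Y had single clones above 80 counts.

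The regulators of the response were tested in full, and none was called or had an unadjusted p under 0.05. USP18, the protease that removes ISG15 and restrains the type I receptor, ran from 0.243 to 3.42 CPM in A clones and from 0.0895 to 2.94 CPM in N clones, with a log2 fold change of 0.35 (SE 0.518, adjusted p = 0.651). PARP14, an ADP-ribosyltransferase, had the highest mean CPM of the group. It ran from 22.1 to 118 CPM in A clones (median 34.5) and from 16.6 to 50.0 CPM in N clones (median 31.1). Its highest value was in A clone 23-108, followed by 74.6 CPM in A clone 20-106, and its log2 fold change was 0.50 (SE 0.300, adjusted p = 0.238). PARP9 and DTX3L, whose products form a complex that boosts the interferon response, had log2 fold changes of -0.14 (SE 0.297) and -0.31 (SE 0.192). Both were highest in N clone 20-15, at 17.1 and 16.8 CPM, and next in N clone 17-23. In the reference annotation their ranges overlap, so reads may be shared between them.

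In the class I pathway 6 of 7 genes were tested, and none was called, with 2 at an unadjusted p under 0.05. B2M, the light chain of every class I molecule, ran from 60.2 to 189 CPM in A clones (median 115) and from 62.6 to 118 CPM in N clones (median 82.4). Above every N clone lay 5 A clones, and 1 A clone, 23-62, was the lowest of all. The means were 117 ± 35.8 and 85.0 ± 18.2 CPM (SD, n = 10 each), and the log2 fold change of 0.44 (SE 0.161, adjusted p = 0.0593) did not pass. The estimate was above 0 in all 4 animals, at 1.33, 0.40, 0.44 and 0.20 in animals 17, 20, 22 and 23. It passed in 5 of 36 alternative fits, with adjusted p-values of 0.0130 to 0.596 over them.

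TAPBP (tapasin), which holds class I molecules at the peptide transporter, had the highest mean CPM of the group. It ran from 78.3 to 151 CPM in A clones (median 117) and from 119 to 164 CPM in N clones (median 137). Below every N clone lay 5 A clones, and its log2 fold change of -0.22 (SE 0.0968, adjusted p = 0.110) did not pass. The estimate was 0.18 in animal 17 and below 0 in the other 3 animals.

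PSMB8, a catalytic subunit of the immunoproteasome, had the largest spread within condition of the 39 genes, an SD of 1.96 on the log2 scale. It ran from 0 to 4.11 CPM in A clones (median 0.839) and from 0.179 to 20.0 CPM in N clones (median 2.96). N clones 20-15, 22-5, 22-9 and 17-23, at 20.0, 13.0, 12.4 and 9.07 CPM, lay above every A clone, and A clone 22-121 had 0 counts. The log2 fold change of -1.68 (SE 0.859, adjusted p = 0.167) had a 95% interval of -3.36 to 0.00. TAP1, a subunit of the peptide transporter, gave -0.996 (SE 0.662, adjusted p = 0.288), with 16.0 and 12.4 CPM in N clones 22-5 and 22-9 against 0.243 to 5.20 CPM in the other 18 clones. Without these 2 clones TAP1 was at 0.05 (SE 0.631, adjusted p = 0.970) and PSMB8 at -0.56 (SE 1.08, adjusted p = 0.759).

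PSMB9, the neighbouring immunoproteasome subunit, had 0 to 21 counts in A and 1 to 22 counts in N clones and was not tested. TAP2, the partner of TAP1, had a log2 fold change of 0.06 (SE 0.243, adjusted p = 0.871). NLRC5, the transactivator of class I genes, gave 0.47 (SE 0.380, adjusted p = 0.386). TAP1, PSMB9 and TAP2 lie near PSMB8 in the reference annotation.

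**Figure D4:**
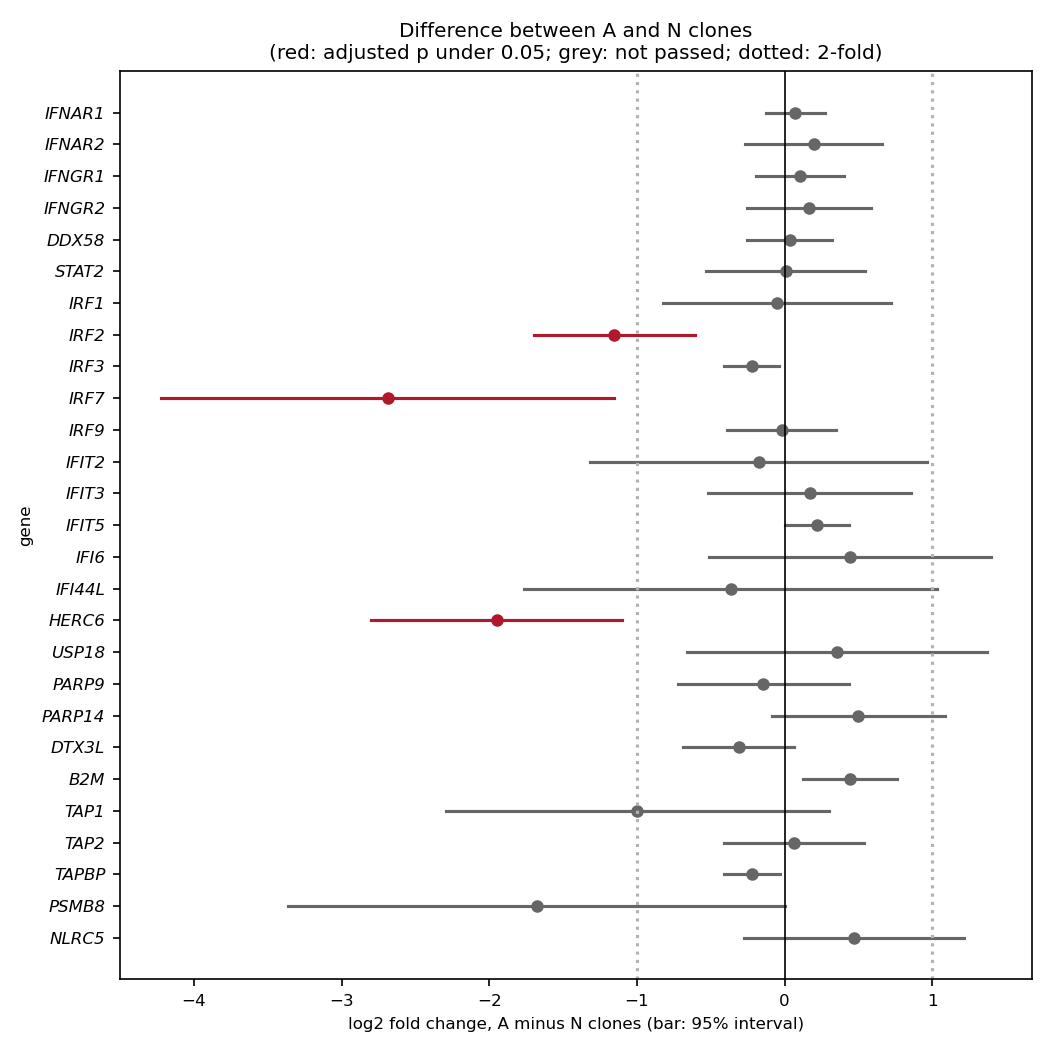
Log2 fold change of A over N clones with its 95% interval for the 27 genes tested, grouped by role from receptors at the top to class I genes at the bottom. Red marks an adjusted p under 0.05, and dotted lines mark 2-fold. The intervals of HERC6, IRF2 and IRF7 lay below 0, while those of IFIT2, IFI44L, TAP1 and PSMB8 were wide.

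The 95% intervals of 16 of the 24 genes not called lay within 2-fold in either direction. Those of the other 8, IFIT2, IFI6, IFI44L, USP18, PARP14, TAP1, PSMB8 and NLRC5, reached beyond 2-fold, so for these genes a difference of that size stands within the error of these clones. Besides PSMB8, IRF7 and OAS1Y varied most within condition, with SDs of 1.78 and 1.75 on the log2 scale. None of the 27 genes separated A from N clones without overlap, against 0.233% of all genes with every A clone above every N clone and 0.0930% with every A clone below.

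High values were concentrated in a few clones. Among N clones, 20-15 was the highest for 14 of the 27 genes (51.9%), while it was the highest for 17.1% of all genes tested. N clone 22-5 was the highest for 6 genes (22.2%) and the lowest for 8 (29.6%), near its shares of 17.6% and 21.2% of all genes tested. Among A clones, 17-57 and 23-14 were each the highest for 7 genes (25.9%), against 13.5% and 13.4% of all genes tested. A clone 22-11 was the highest for 5 genes (18.5%), against 7.98% of all genes tested. Clone 20-15 and clone 17-57 also had the highest endothelial sums of their groups, at 41.6 and 69.9 CPM, against medians of 5.67 CPM in N and 10.1 CPM in A clones. N clone 17-23 had nearly the same endothelial sum, 41.0 CPM, and was the highest for 1 of the 27 genes. The part of these markers in the result was not tested.

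Between animals 23 and 22, which gave 8 clones each, none of the 27 genes was called with condition as a covariate, and 4 had an unadjusted p under 0.05. Among all 12915 genes in this test, 1594 had an unadjusted p under 0.05, and 0.0619% were called higher and 0.0465% lower in animal 23. IFIT3 was at 2.70 to 10.2 CPM in animal 22, with a median of 5.59, and at 6.46 to 40.1 CPM in animal 23, with a median of 11.99. IFIT2 was at 0.582 to 6.26 CPM in animal 22, with a median of 3.07, and at 4.22 to 49.4 CPM in animal 23, with a median of 8.26. Their log2 fold changes of animal 23 over animal 22 were 1.36 (SE 0.324, adjusted p = 0.104) and 1.98 (SE 0.609, adjusted p = 0.197) in edgeR's quasi-likelihood test. Both passed with DESeq2's Wald test, which called 425 genes in all against 14 in the main test.

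**Figure D5:**
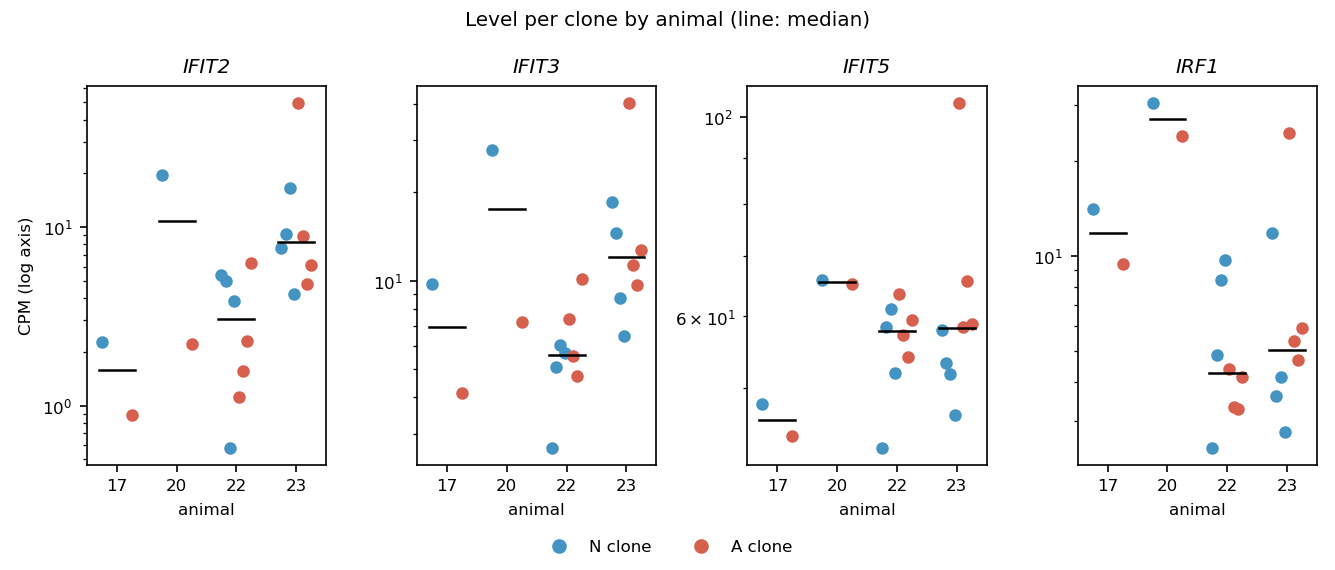
Level per clone in CPM on a log axis for IFIT2, IFIT3, IFIT5 and IRF1 by animal, with N clones in blue and A clones in red, and the line at the median. Animals 17 and 20 have 2 clones each and animals 22 and 23 have 8 each. In IFIT2, IFIT3 and IFIT5 a single A clone of animal 23, clone 23-14, was the highest of all 20.

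The dependence of the A against N difference on the animal was tested by the interaction term over the same clones. None of the 27 genes passed, and 2 had an unadjusted p under 0.05. Of all 12915 genes in this test, 1170 had an unadjusted p under 0.05 and 0.031% passed. STAT2 had the difference -0.81 in animal 22 and 0.82 in animal 23, an interaction of 1.60 (SE 0.483, adjusted p = 0.340 in edgeR's quasi-likelihood test). PARP14 had -0.39 and 1.02, an interaction of 1.73 (SE 0.547, adjusted p = 0.386 in the same test).

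Of 119 other genes of these pathways, listed by role, 111 had a row and 82 were tested between A and N clones. In A clones 4 were higher (4.88%) and 11 lower (13.4%), against 10.3% in each direction over all genes tested, and their median log2 fold change was -0.0167. By list, 1 of 13 signalling genes was higher and none lower, 1 of 17 sensing genes was higher and 2 lower, 1 of 26 further interferon-stimulated genes was higher and 4 lower, and 1 of 26 further presentation genes was higher and 5 lower. Of the 11 lower calls, 7 were lost without N clones 22-5 and 22-9: IKBKE, IFI35, MOV10, TAPBPL, PSME1, PSME2 and RFX5, with adjusted p-values of 0.065 to 0.166. Other removals lost calls as well: 3 of the 11 without animal 17, 6 without animal 20 and 7 without animal 22. Without animals 17 and 20 together 8 were lost, and without animal 23 all 11. Of the 4 higher calls, 0 were lost without clones 22-5 and 22-9. Without animal 17, 20, 22 or 23 the higher calls lost were 1, 1, 2 and 4, and without animals 17 and 20 together 2. All these fits hold fewer clones, by unlike numbers, and the part of clones 22-5 and 22-9 in the losses was not tested. Of all 15 calls, JAK1, CTSL, IKBKE and PDIA3 were lost in edgeR's test without the animal block, with adjusted p-values of 0.0555, 0.247, 0.0531 and 0.0559.

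The signalling gene that rose was JAK1, a kinase of both receptor types, at 210 ± 45.2 CPM in A and 155 ± 42.6 CPM in N clones (SD, n = 10 each), with a log2 fold change of 0.43 (SE 0.112, adjusted p = 0.0139). TICAM1, the adaptor of TLR3, was higher in A clones by 0.50 (SE 0.138, adjusted p = 0.0187). The kinase IKBKE and the RNA-activated kinase EIF2AK2 (PKR) were lower, at -0.60 (SE 0.204, adjusted p = 0.0445) and -0.22 (SE 0.0684, adjusted p = 0.0301).

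Of the further interferon-stimulated genes, TDRD7 was higher in A clones by 0.55 (SE 0.124, adjusted p = 0.00695). By animal, the difference of TDRD7 was -0.42 in animal 17 and 0.61, 0.65 and 0.66 in animals 20, 22 and 23. IFI35, SP110, PNPT1 and MOV10 were lower, at -1.09 (SE 0.313), -0.62 (SE 0.141), -0.28 (SE 0.0636) and -0.49 (SE 0.147), with adjusted p-values of 0.0227, 0.00706, 0.0074 and 0.0263. The change of PNPT1, a mitochondrial RNA exonuclease, was small and even: 9 of 10 A clones lay below every N clone. HERC5, a relative of HERC6, gave -0.19 (SE 0.260, adjusted p = 0.627). Of this list, 15 genes with a row were under the filter and not tested between A and N clones. Among them, CCL5 had 7 to 343 counts in A and 0 to 10 counts in N clones. Only A clone 17-57 (0.476 CPM) did not exceed the highest N clone, 23-23 (0.479 CPM). The difference of CCL5 was 2.48, 6.68, 2.91 and 2.99 in animals 17, 20, 22 and 23. GBP5 was lower in A clones in all 4 animals, with 0 to 14 counts in A and 1 to 127 in N clones.

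In the presentation list, both subunits of the proteasome activator PA28, PSME1 and PSME2, were lower in A clones, by -0.62 (SE 0.183, adjusted p = 0.0255) and -0.41 (SE 0.136, adjusted p = 0.0422). The peptide editor TAPBPL was at -0.64 (SE 0.174, adjusted p = 0.0178), the oxidoreductase PDIA3 of the peptide-loading complex at -0.27 (SE 0.0912, adjusted p = 0.0478) and RFX5, a factor of class II and class I promoters, at -0.42 (SE 0.116, adjusted p = 0.0177). The lysosomal protease CTSL was higher by 1.45 (SE 0.492, adjusted p = 0.0455). BOLA, a class I heavy chain gene, gave 0.14 (SE 0.166, adjusted p = 0.556). The class I heavy chain genes BOLA-NC1 and JSP.1 gave 0.80 (SE 0.313, adjusted p = 0.0764) and 0.94 (SE 0.452, adjusted p = 0.144), and neither was called. Class I heavy chain genes share much sequence, so their counts are uncertain. IKBKE, PDIA3, PSME2 and CTSL each lost the call in 13 to 17 of the 20 fits that left out a single clone.

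Of the interferon genes themselves, only IFNB1, IFNG, IFNK and IFNE were looked up, and these had few or no counts. IFNB1 had 1 count in 1 A clone, IFNG had 3 counts in A clone 23-14, and IFNK had none in any clone. IFNE had 51 counts over 15 clones. The class II genes were mixed. BOLA-DRA, BOLA-DQB and BOLA-DOA had 0 counts in all 20 clones, and CD74, the class II invariant chain, and CIITA, the class II transactivator, reached at most 3 and 1 counts in a clone. BOLA-DRB3 had 377 counts over 11 clones, of which 168 were in A clone 23-108 and 86 in N clone 23-10, and BOLA-DOB had 94. BOLA-DMA and BOLA-DMB, which encode the class II peptide editor, had counts in every clone, with log2 fold changes of 0.11 (SE 0.223, adjusted p = 0.747) and -0.16 (SE 0.508, adjusted p = 0.841).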

How the data were processed

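The authors deposited whole-number read counts per gene. Per the labels, reads from a directional kit were handled with bcl2fastq 2.20, Trimmomatic 0.36, STAR 2.5.2b and featureCounts of Subread 1.5.2 on ARS-UCD1.2. The strand setting of counting is not given in the sources used here, so counts of overlapping genes and of near-identical copies are uncertain. Of 39 genes, 38 matched RefSeq (ARS-UCD2.0), used for names and neighbours only, and 16 of them overlap another gene there, among them IFIT2, IFIT3 and IFIT5 with LIPA, IRF1 with RAD50, and OAS1Y with OAS2. A row with no gene name, 0.113 to 0.333% of each library, was left out.

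Counts were tested with edgeR 4.0.16 in R 4.3.3 (TMM, filterByExpr on condition, robust quasi-likelihood F test, Benjamini-Hochberg adjustment over all genes tested) with animal as a block. The study describes a paired design, and deviations of A and N clones of the same animal correlated at 0.253, 0.192, 0.241 and 0.440 in animals 17, 20, 22 and 23 over 12900 genes. Animal 23 was compared with animal 22 over 16 clones with condition as covariate, and the interaction was tested over the same clones. SE is the log2 fold change divided by the root of F, and 95% intervals use the normal quantile. Per-animal differences are of mean log2 CPM with a prior count of 2. Alternatives used DESeq2 1.42.0, limma 3.58.1, other scalings and filters, and clones or animals left out. The procedure was tested on simulated counts drawn independently for each clone, with no animal effect. That test therefore does not cover clones that share a donor.

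Genes and lists were chosen with earlier results of these data known. Values were given for genes called, the gene of highest mean CPM per role, the 3 with the largest SD within condition, genes under the filter, and called pathway genes; the naming of further genes followed their values.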

Additional observations from a re-analysis of the deposited data

Results flagged for a closer look

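In 4 of 54 groups of 10 clones (the 27 genes tested, in A and in N clones) the highest or lowest clone stood apart: the gap to its nearest neighbour, as a share of the whole range in log2 CPM, was above the 95% critical value of Dixon for 10 samples. Chance flags about 1 in 20 groups, 2.7 here, and the groups share clones. IFIT5 in A clones had a gap of 0.534, clone 23-14 being at 103.6 CPM and the others at 44.2 to 65.7 CPM. IFIT3 in A clones had a gap of 0.509, the same clone being at 40.1 CPM and the others at 4.15 to 12.7 CPM. IFNGR1 in N clones had a gap of 0.531, clone 22-5 being at 11.3 CPM and the others at 20.7 to 35.1 CPM. TAPBP in A clones had a gap of 0.522, clone 22-27 being at 78.3 CPM and the others at 110.3 to 151 CPM.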

How the results depend on the processing

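Against 3 of the listed genes called between A and N clones, none was called with animal 22 alone (8 at an unadjusted p under 0.05 in edgeR's test) or without animal 23 (5), 1 (HERC6) with animal 23 alone, and 1 (HERC6) without N clones 22-5 and 22-9, chosen after seeing the data. These fits hold fewer clones, and the cause was not tested further. The share of all genes at an unadjusted p under 0.05 was not computed in them. With single clones left out the count was 3 to 5, with B2M and IRF3 added without A clone 22-121. Without the replicate block it was 3, and the paired and unpaired fits called the same listed genes. DESeq2 with the block called 4, with B2M added. Over the alternatives the log2 fold change of HERC6 was -2.58 to -1.24 and passed in 34 of 36 fits, that of IRF2 was -1.34 to -0.89 and passed in 32 of 36, and that of IRF7 was -3.59 to -1.30 and passed in 29 of 35. All 3 passed in each of the 20 fits without a single clone. Of 963 fits of single listed genes, 945 kept the side of the threshold, 12 lost the call and 6 gained one. No called gene reversed direction. Estimates of genes not called did change sign, in 78 of 1502 fits of the listed genes and the called pathway genes together. For the 15 other pathway genes called, 168 of 539 fits lost the call. Between animals 23 and 22, DESeq2's Wald test called 2 (IFIT2 and IFIT3) against 0, and fits without a single clone called 0 to 1 (IFIT3 without A clone 23-62). Other scalings moved the median of all genes by at most 0.00935 on the log2 scale. Without counts above a few per clone, MX2, RSAD2 and OAS2 allow no comparison at this depth.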
